A study of Mus musculus with 28 samples.

Results

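Sterol synthesis and fatty acid desaturation were followed through 10 genes in mouse T cells that had met antigen briefly, continuously or not at all. The genes were 8 enzymes of cholesterol synthesis (Hmgcs1, Idi1, Fdps, Fdft1, Sqle, Lss, Cyp51 and Dhcr7) and the 2 stearoyl-CoA desaturases Scd1 and Scd2. A probe set was taken when the platform annotation gave one of these symbols, which found 25 of the 20380 probe sets with 1 symbol and 10 of the 12393 genes, and no measured value entered that rule. The 28 arrays, Affymetrix Mouse 430A2 chips that read amplified RNA, covered 10 groups of T cells from C57BL/6N mice with a transgenic T cell receptor, AND in CD4 cells and OT1 in CD8 cells. On day 2, each cell type had 3 arrays of cells kept for 2 days in untreated plates (unstimulated) and 3 of cells kept on plate-bound antibodies to CD3 and CD28 (stimulated), all in medium with 10% serum and 5 ng/ml IL7. On day 5, cells had spent the same 2 days in culture and 3 more days in a host mouse, from which they were sorted again. Unstimulated cells came from untreated plates, transient cells had been stimulated and then placed in hosts without the antigen, and continuous cells had been stimulated and then placed in hosts that express it (dtg-O or -M). These groups had 3 arrays each, except unstimulated and transient CD4 cells with 2 each. The submitters call the replicates biological. The animals' age and what drives the antigen in the hosts are not given in the sources used here. CD4 and CD8 cells differed in lineage, receptor and antigen at once, so these cannot be told apart.

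Cholesterol is built from acetyl-CoA through mevalonate. The isoprenoid units made from mevalonate are joined to farnesyl pyrophosphate and squalene, which is closed to lanosterol and trimmed to cholesterol. When sterol in the endoplasmic reticulum is scarce, the SREBP transcription factors (genes Srebf1 and Srebf2) are carried by Scap to the Golgi, cut, and turn on these enzymes together, while surplus sterol activates the LXR receptors, which turn on the exporters Abca1 and Abcg1. Stearoyl-CoA desaturases put the first double bond into saturated fatty acids and are known targets of both SREBP-1 and LXR. T cells that divide need new membrane, and sterol synthesis is known to be switched on when they are activated.

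The promoters show what the members share and do not share at their start sites, so 3 are given that hold the long form, the short form and neither form of the element through which SREBP acts. They are the 250 bases before the transcription start in RefSeq on build GRCm38.p6, read in the direction of the gene. The RefSeq table used here held 7 windows for 5 of the 10 genes. Capitals mark a sterol regulatory element (TCACNCCAC, or the shorter TCACNNCA that lies within it) or a CCAAT box, each searched on both strands, so that ATTGG is a CCAAT box on the other strand.
Hmgcs1 (chr13:119690101-119690350, plus strand): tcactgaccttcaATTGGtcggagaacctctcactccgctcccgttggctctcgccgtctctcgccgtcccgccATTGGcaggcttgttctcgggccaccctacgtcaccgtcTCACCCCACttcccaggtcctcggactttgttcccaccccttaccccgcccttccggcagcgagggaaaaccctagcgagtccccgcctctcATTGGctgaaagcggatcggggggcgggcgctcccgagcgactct
Cyp51 (chr5:4104698-4104947, minus strand): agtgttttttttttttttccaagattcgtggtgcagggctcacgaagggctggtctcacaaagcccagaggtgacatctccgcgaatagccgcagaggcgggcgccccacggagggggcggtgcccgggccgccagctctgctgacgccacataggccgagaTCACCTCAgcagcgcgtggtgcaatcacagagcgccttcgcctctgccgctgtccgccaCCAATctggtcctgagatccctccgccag
Idi1 (chr13:8885356-8885605, plus strand): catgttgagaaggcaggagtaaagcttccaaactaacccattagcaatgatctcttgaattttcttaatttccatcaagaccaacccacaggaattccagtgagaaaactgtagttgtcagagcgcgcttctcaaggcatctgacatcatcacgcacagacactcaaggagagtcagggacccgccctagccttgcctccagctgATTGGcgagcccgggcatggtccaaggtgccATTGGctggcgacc
Hmgcs1 carried TCACNCCAC from 137 to 129 bases before the start and 3 CCAAT boxes. Cyp51 carried the shorter form from 88 to 81 bases before the start and 1 CCAAT box from 29 to 25. Idi1 held neither form of the element in this window and 2 CCAAT boxes, from 45 to 41 and from 14 to 10. Over 32851 promoter windows of 250 bases, 1.05% held TCACNCCAC, 11.4% the shorter form and 33.8% a CCAAT box. These are matches of letters and not measured binding. Scd1 and Scd2 are neighbours in the mouse genome with 1 other protein-coding gene, Scd4, between them.

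The values are log2 signals, and a gene is given by its probe set with the highest mean unless another is named. Differences are log2 differences of group means with their standard error (SE), from limma fits across all 12393 genes for each day, and a gene was called at a Benjamini-Hochberg adjusted p below 0.05. The third arrays labelled unstimulated CD4 and CD8 on day 2 stood apart. Their median signals were 4.83 and 4.97 against 6.29 to 6.53 on the other 26 arrays. The array labelled CD4 read Cd4 at 5.40 and Cd8a at 9.88, and the one labelled CD8 read Cd8a at 5.78, so both went against their labels. They were kept as labelled, and day 2 counts are given with and without them, as are the values of the called genes. On day 5 Cd4, Cd8a and Cd8b1 matched the labels, but Cd4 was at 7.68 and 7.88 in transient CD4 cells and from 9.22 to 9.86 in the other CD4 groups. Zbtb7b, a further CD4 lineage marker, did not match there. It read 7.84 and 7.85 in transient CD4 cells, below 7.92 to 8.10 in transient CD8 cells. The beta-actin control probe sets, whose 3' minus 5' signal grows as RNA degrades, differed by 2.42 to 2.73 in transient CD4 cells and by 1.92 to 2.44 in unstimulated CD8 cells, against 0.31 to 1.02 in the other 4 groups of day 5. For that reason continuous cells were set first against the control that lay closest on this measure, unstimulated cells for CD4 and transient cells for CD8, a choice made with these values known.

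The mean log2 signal of the 8 sterol genes was highest in continuous cells on day 5. It was 9.37, 9.48 and 9.12 on the CD4 arrays and 9.30, 9.08 and 8.78 on the CD8 arrays. The other 10 arrays of day 5 lay between 8.10 and 8.70, below all 6 continuous arrays. On day 2 it was 8.96 to 9.36 in stimulated CD4 cells and 8.69 to 8.92 in stimulated CD8 cells, against 6.15 to 8.19 on the 6 arrays labelled unstimulated.

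**Figure D1:**
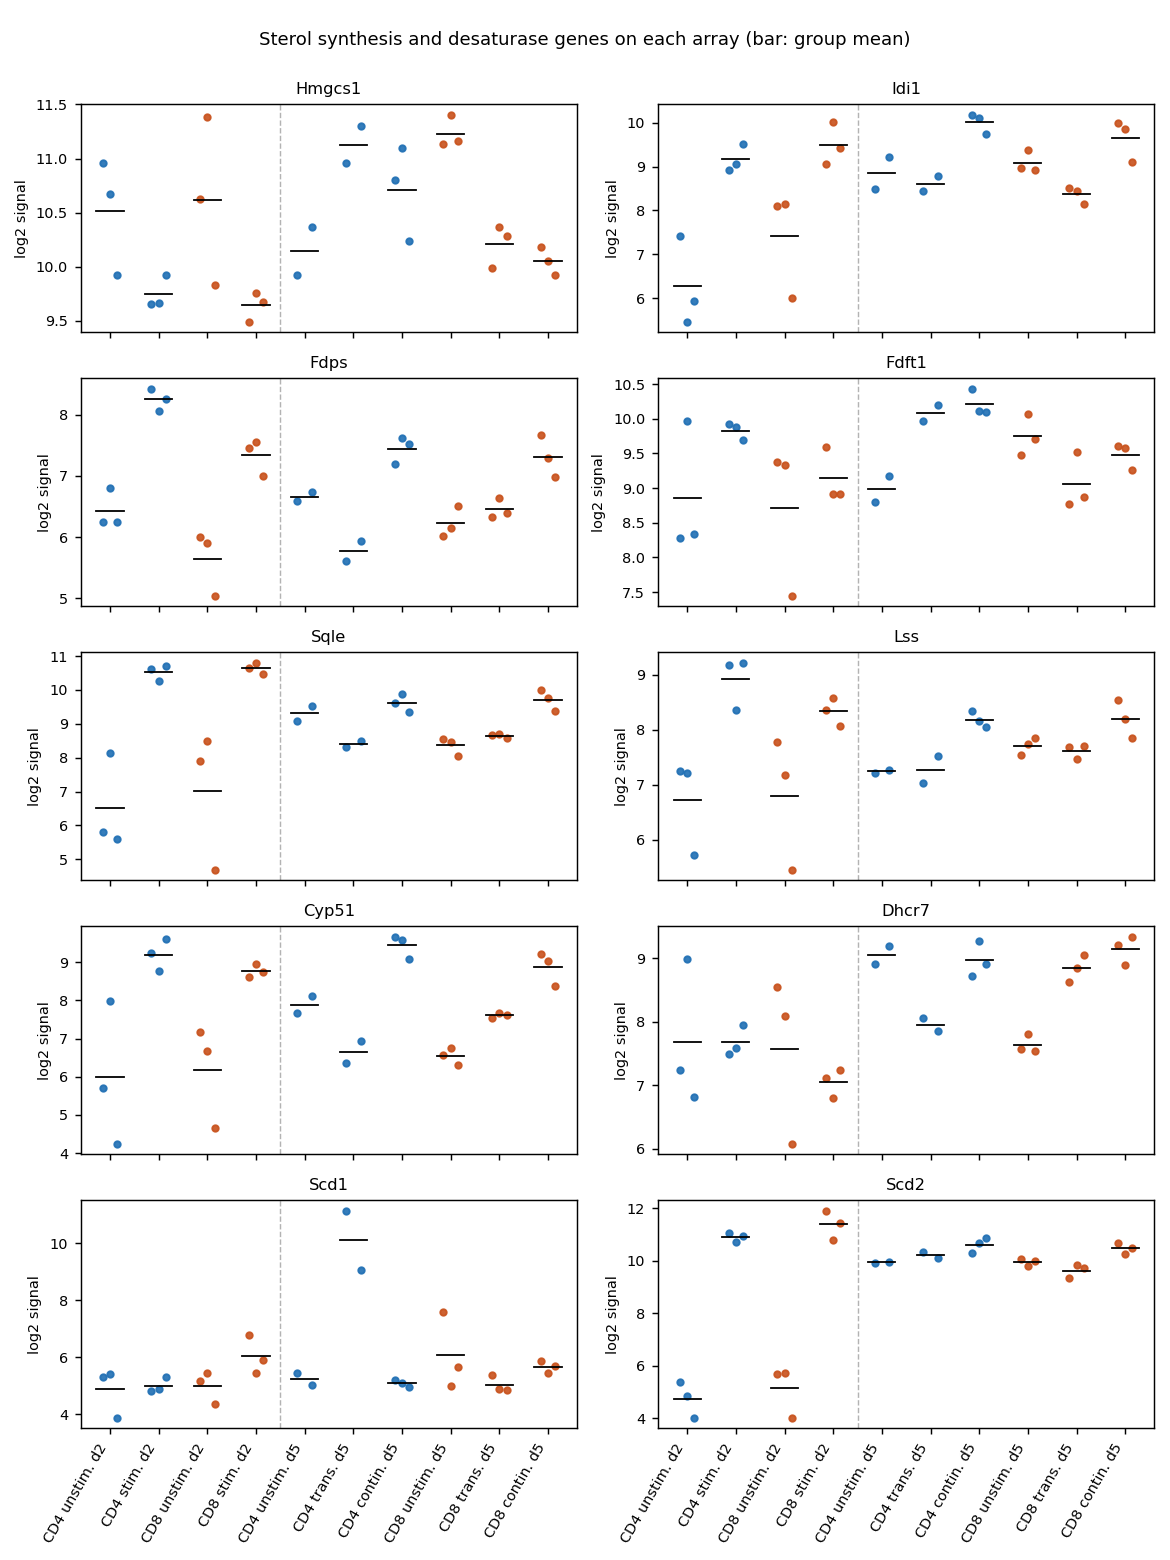
Log2 signal of the 10 genes on each of the 28 arrays, in 10 panels with the groups of day 2 left and those of day 5 right of the dashed line (points: arrays, bars: group means). Cyp51 stands at 9.09 to 9.67 in continuous CD4 cells and 8.37 to 9.22 in continuous CD8 cells, above every other array of day 5. Scd2 stands at 4.02 to 5.73 in unstimulated and 10.72 to 11.91 in stimulated cells of day 2, and Scd1 is highest in transient CD4 cells, at 11.14 and 9.07.

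The first comparison set continuous against unstimulated CD4 cells on day 5. Continuous and unstimulated cells differed in the 2 days of stimulation in culture and in the antigen in the host. These cannot be told apart in comparisons of the 2 groups. Some of the cholesterol synthesis genes were higher in continuous than in unstimulated cells, Cyp51 by 2.94-fold, Fdft1 by 2.35-fold and Idi1 by 2.23-fold. The desaturase Scd2 was higher as well. Hmgcs1, Sqle, Dhcr7 and Scd1 were not called. In all, 6 of the 10 genes rose and 0 fell, where 9.92% of all genes were called up and 10.8% called down. The median difference was 0.73 over the 10 genes and -0.02 over all genes.

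Hmgcs1, which makes the precursor of mevalonate, read 9.92 and 10.37 in unstimulated and 10.80, 11.10 and 10.24 in continuous CD4 cells. The third continuous array lay within the unstimulated range, and the difference of 0.57 (SE 0.22, adjusted p = 0.093) was not called, although the mean of its 4 probe sets rose by 0.95 (adjusted p = 0.0104). Idi1, which isomerises the isoprenoid unit, read 8.49 and 9.21 against 10.18, 10.11 and 9.73, without overlap. It rose by 1.16 (SE 0.27, adjusted p = 0.00831). Fdps, which makes farnesyl pyrophosphate, read 6.59 and 6.74 against 7.19, 7.62 and 7.53, also apart. That rise was 0.78 (SE 0.21, adjusted p = 0.0155). Fdft1, which joins farnesyl units to squalene, read 8.80 and 9.17 against 10.43, 10.11 and 10.10. All 3 continuous arrays were at least as high as 10.10, and the gene rose by 1.23 (SE 0.23, adjusted p = 0.00184).

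Sqle, which oxidises squalene and is a control point of the late pathway, read 9.09 and 9.53 in unstimulated and 9.62, 9.89 and 9.35 in continuous CD4 cells. These ranges overlapped, and the difference of 0.31 (SE 0.21, adjusted p = 0.37) was not called. Lss, which closes the ring to lanosterol, read 7.22 and 7.28 against 8.34, 8.16 and 8.04, and rose by 0.94 (SE 0.19, adjusted p = 0.00351), but the difference was 0.02 (adjusted p = 0.937) when its 3 probe sets were averaged. Cyp51, which removes a methyl group from lanosterol, had the widest gap of the 10 genes, with 7.67 and 8.11 against 9.67, 9.58 and 9.09. Its rise was 1.56 (SE 0.26, adjusted p = 0.000792). Dhcr7, which reduces the last double bond, read 8.91 and 9.19 against 8.72, 9.28 and 8.92, and its ranges overlapped with a difference of -0.08 (95% interval -0.48 to 0.32). Among the desaturases, Scd2 read 9.93 and 9.96 against 10.29, 10.67 and 10.89 and rose by 0.68 (SE 0.19, adjusted p = 0.0209), against an uncalled 0.40 for the mean of its 3 probe sets. Scd1 was low in both groups, at 4.96 to 5.46.

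These CD4 calls rested on few arrays. Without the first unstimulated array 3 of the 10 genes were called. A single fit of all 28 arrays called 0 of the 10 genes by limma (4 at an unadjusted p below 0.05), because the median SE over all genes was 0.448 there against 0.166 in the day 5 fit. The count of all genes called fell with it, from 2570 to 329. Without the third unstimulated arrays of day 2, an alternative chosen after seeing the data, that fit called 4 of the 10 genes. The actin 3' minus 5' difference was 0.67 and 0.98 in unstimulated and 0.40 to 0.62 in continuous CD4 cells, and its part in the result was not tested. The mean of 9 myeloid markers was 7.49 and 5.76 in unstimulated and 8.10, 5.34 and 5.42 in continuous CD4 cells, so the first array of each group was high. None of the 9 and none of the 7 B cell markers was called in this comparison by limma (0 and 0 at an unadjusted p below 0.05), nor was any of the 4 pan T cell markers (2 at an unadjusted p below 0.05).

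In CD8 cells, continuous antigen was set against transient stimulation, with the same 2 days of stimulation in culture in both groups. In that comparison 6 of the 10 genes rose and 0 fell, where 13.6% of all genes were called up and 13.6% called down. Idi1 was 2.43-fold and Cyp51 2.41-fold higher in continuous cells, and Sqle, Fdps, Scd2 and Lss were higher too. The median difference was 0.75 over the 10 genes and -0.05 over all genes.

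Idi1 read 8.51, 8.45 and 8.15 in transient and 10.00, 9.85 and 9.10 in continuous CD8 cells, without overlap, and rose by 1.28 (SE 0.24, adjusted p = 0.00154). Fdps read 6.32, 6.64 and 6.40 against 7.67, 7.30 and 6.99, and rose by 0.87 (SE 0.18, adjusted p = 0.00319). Sqle read 8.67, 8.69 and 8.59 against 10.00, 9.75 and 9.38. Its transient arrays lay close together and all below the continuous ones, and the gene rose by 1.06 (SE 0.19, adjusted p = 0.000974). Cyp51 read 7.53, 7.66 and 7.62 against 9.22, 9.03 and 8.37, again apart, with a rise of 1.27 (SE 0.23, adjusted p = 0.00107). In this gene, as in Idi1, Fdps, Sqle and Lss, the third continuous array was the lowest of its group. That array also had the highest B cell marker mean of its group, 8.39 against 7.35 and 6.64, and the part of this in the values was not tested.

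Lss read 7.69, 7.47 and 7.70 in transient and 8.55, 8.19 and 7.85 in continuous CD8 cells and rose by 0.58 (SE 0.17, adjusted p = 0.0221), but the difference was -0.03 when its 3 probe sets were averaged. Scd2 read 9.34, 9.84 and 9.71 against 10.70, 10.28 and 10.50 and rose by 0.86 (SE 0.17, adjusted p = 0.00175). The other 4 genes were not called. Hmgcs1 differed by -0.16 (95% interval -0.59 to 0.27), Fdft1 by 0.43 (-0.02 to 0.87), Dhcr7 by 0.30 (-0.06 to 0.66) and Scd1 by 0.64 (-0.56 to 1.83). The single fit of all 28 arrays called 0 of the 10 genes here by limma (3 at an unadjusted p below 0.05), and without the third unstimulated arrays of day 2 it called 5. The actin 3' minus 5' difference was 0.66 to 1.02 in transient and 0.31 to 0.56 in continuous CD8 cells, and its part was not tested. No B cell and no myeloid marker was called by limma (0 and 0 at an unadjusted p below 0.05). Of the 4 pan T cell markers 2 fell, with a median of -0.39 over the 4, whose part was not tested either.

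**Figure D2:**
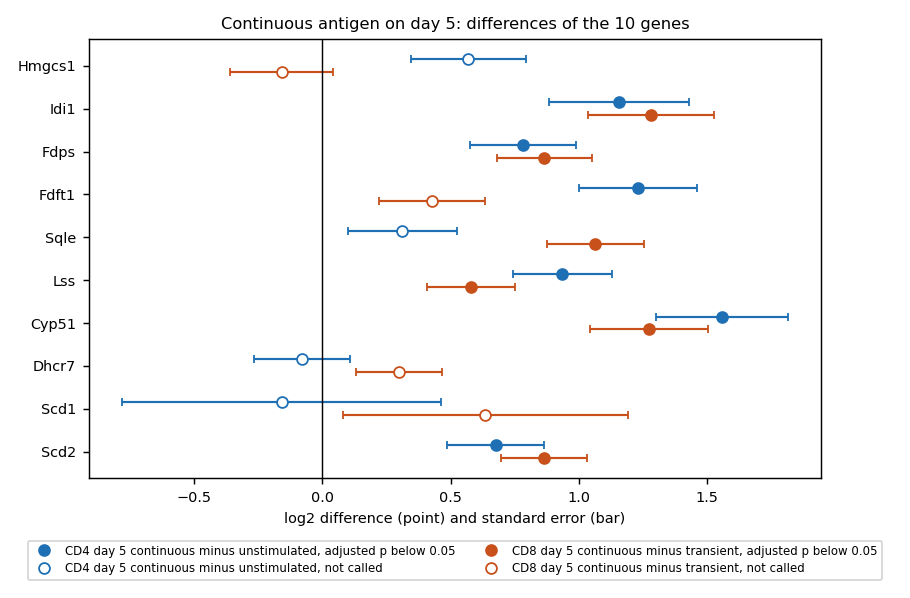
Log2 difference of each of the 10 genes on day 5, continuous minus unstimulated CD4 cells in blue and continuous minus transient CD8 cells in orange (points: differences, filled where called; bars: standard errors). Cyp51 lies farthest right in CD4 cells, at 1.56, and Idi1 in CD8 cells, at 1.28, while Dhcr7 and Scd1 are open in both.

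The other control of each cell type gave larger differences for Cyp51, Fdps, Sqle and Dhcr7 in both lineages and smaller ones for Lss and Scd2. Fdft1 was called against neither of these controls. These comparisons share the continuous arrays with those above and are given side by side with them, not as separate evidence. Against transient CD4 cells, 6 genes rose and 1 fell, where 17.6% of all genes were called up and 16.5% down. Cyp51 read 6.36 and 6.94 in transient CD4 cells, below all 3 continuous arrays, and was 6.94-fold higher in continuous cells, a rise of 2.80 (SE 0.26, adjusted p = 4.14e-06). Fdps rose by 1.67, Idi1 by 1.40, Sqle by 1.21, Dhcr7 by 1.01 and Lss by 0.90, while Scd1 fell by 5.01. Hmgcs1 differed by -0.42, Fdft1 by 0.13 and Scd2 by 0.38, none of them called. Averaging the probe sets took Lss to an uncalled 0.13 and turned Hmgcs1 to a called rise of 1.23. The fit of all 28 arrays called 3 of the 10 genes.

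Against unstimulated CD8 cells, 6 genes rose and 1 fell, where 21.4% of all genes were called up and 25.9% down. Cyp51 read 6.57, 6.75 and 6.30 in unstimulated CD8 cells and was 5.05-fold higher in continuous cells, a rise of 2.34 (SE 0.23, adjusted p = 3.06e-06). Dhcr7 rose by 1.51, Sqle by 1.35, Fdps by 1.09, Scd2 by 0.53 and Lss by 0.48, and the Lss difference was -0.38 when its 3 probe sets were averaged. Hmgcs1 fell by 1.18, but differed by -0.12 (adjusted p = 0.646) when its 4 probe sets were averaged. Idi1 differed by 0.57, Fdft1 by -0.27 and Scd1 by -0.41, none of them called. The fit of all 28 arrays called 3 of the 10 genes here too. Both control groups here were those with the high actin 3' minus 5' values given above, and transient CD4 cells also carried B cell transcripts, with 6 of the 7 markers falling from transient to continuous cells by a median of -2.74. Of the 4 pan T cell markers 3 rose against each of these controls. The part of either in these differences was not tested.

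How far the genes stayed changed after a brief stimulus was asked by setting transient against unstimulated cells on day 5. In CD4 cells 3 genes rose and 4 fell, where 9.66% of all genes were called up and 13.1% down. Hmgcs1, at 10.96 and 11.30 in transient cells, rose by 0.99 (SE 0.24, adjusted p = 0.0103), but the mean of its 4 probe sets differed by -0.28 and was not called. Fdft1 rose by 1.10 and Scd1 by 4.85. Dhcr7 read 8.06 and 7.85 in transient against 8.91 and 9.19 in unstimulated CD4 cells, and fell by 1.09 (SE 0.21, adjusted p = 0.00192). Cyp51 fell by 1.24, Sqle by 0.90 and Fdps by 0.89. When probe sets were averaged, Cyp51 at -0.56, Fdps at -0.33 and Fdft1 at 0.37 were not called. Without the second unstimulated or the first transient array 4 genes were called, the mean of all probe sets called 3, the fit of all 28 arrays 1 and that fit without the third unstimulated arrays of day 2 called 4.

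In CD8 cells 2 genes rose and 3 fell, where 16.3% of all genes were called up and 15.5% down. Dhcr7 read 8.64, 8.85 and 9.06 in transient against 7.57, 7.80 and 7.54 in unstimulated CD8 cells, without overlap, and rose by 1.21 (SE 0.17, adjusted p = 0.00011). Cyp51 rose by 1.06. Hmgcs1 fell by 1.02, Idi1 by 0.71 and Fdft1 by 0.70, although the Fdft1 ranges overlapped. When probe sets were averaged, Cyp51 at 0.09, Hmgcs1 at -0.26 and Fdft1 at -0.08 were not called and Lss was, at -0.34. Idi1 lost its call when any 1 of the 6 arrays was left out, with an adjusted p of 0.0534 to 0.139. Leaving out the first or the third transient array left 3 calls, as did the mean of all probe sets, and the fit of all 28 arrays called 0 by limma (2 at an unadjusted p below 0.05) or 2 without the third unstimulated arrays of day 2.

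The difference between these responses was itself called for 7 of the 10 genes, where 37.5% of all genes were called. The transient response of CD8 cells exceeded that of CD4 cells by 2.31 for Dhcr7 (SE 0.26, adjusted p = 1.56e-05), by 2.30 for Cyp51, by 1.18 for Sqle and by 1.11 for Fdps. It was lower for Scd1 by -5.90, for Hmgcs1 by -2.00 and for Fdft1 by -1.80, and the Hmgcs1 difference was 0.03 when its 4 probe sets were averaged. That averaging left 3 of the 10 genes called, and the fit of all 28 arrays left 2. The actin 3' minus 5' value moved in opposite ways, from a mean of 0.83 in unstimulated to 2.57 in transient CD4 cells and from 2.20 to 0.80 in CD8 cells. Its part in these differences, and that of the B cell transcripts of the transient CD4 arrays, was not tested.

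**Figure D3:**
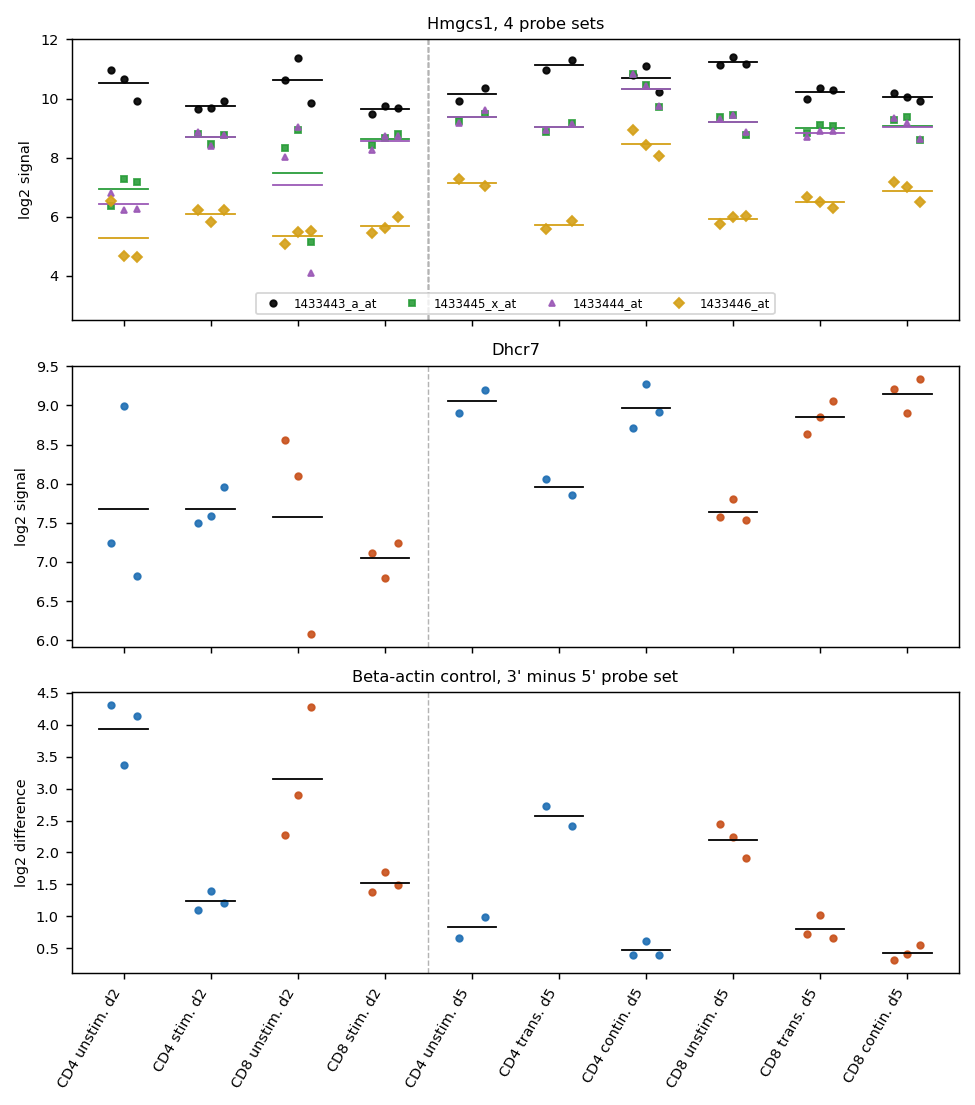
Top, log2 signal of the 4 Hmgcs1 probe sets on each of the 28 arrays; middle, Dhcr7; bottom, the 3' minus 5' log2 difference of the beta-actin control (points: arrays, bars: group means, day 2 left and day 5 right of the dashed line). From unstimulated to transient CD4 cells the highest probe set of Hmgcs1 moves up by 0.99 and the lowest by -1.44. Transient CD4 and unstimulated CD8 cells, at 1.92 to 2.73 in the bottom panel, are the day 5 groups with Dhcr7 at 7.54 to 8.06.

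Continuous CD8 cells were set against continuous CD4 cells to ask whether the lineages ended at different levels. Here 0 genes rose and 2 fell, where 6.58% of all genes were called up and 4.62% down. Fdft1 read 9.60, 9.58 and 9.26 in CD8 against 10.43, 10.11 and 10.10 in CD4 cells, without overlap, and was lower by -0.73 (SE 0.21, adjusted p = 0.0354). Hmgcs1 read 10.18, 10.05 and 9.93 against 10.80, 11.10 and 10.24 and differed by -0.66 (SE 0.20), with an adjusted p of 0.05 after rounding. Leaving out any 1 of the 6 arrays left at most 1 of these calls, and a fit of all 28 arrays, without or with the third unstimulated arrays of day 2, called 0 by limma (2 and 0 at an unadjusted p below 0.05). With probe sets averaged, Hmgcs1 differed by -1.19 (limma adjusted p = 0.00321) and Fdft1 by -0.49 (adjusted p = 0.0472). The other 8 genes were not called. Their 95% intervals were, for example, -0.18 to 0.54 for Dhcr7, -0.32 to 0.50 for Sqle, -0.35 to 0.38 for Lss and -0.53 to 0.27 for Fdps. The step from transient to continuous was smaller in CD8 than in CD4 cells for Cyp51, by -1.52 (SE 0.34, adjusted p = 0.00766), and differed by 5.65 for Scd1, which made 2 of 10 genes called where 18.9% of all genes were. Averaging the probe sets took that Cyp51 difference to an uncalled -0.42 and called Hmgcs1, at -1.10 (adjusted p = 0.0286). Without the first transient CD4 array 1 gene was called, without the first continuous CD4 array 4 were, and the fit of all 28 arrays called 1.

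Scd1 was highest where B cell transcripts were highest. It read 11.14 and 9.07 in transient CD4 cells, 5.46 and 5.04 in unstimulated and 5.21, 5.10 and 4.96 in continuous CD4 cells. Both transient arrays stood above all 26 others, of which the highest was the first unstimulated CD8 array at 7.59. From unstimulated to transient CD4 cells the gene was 28.9-fold higher, a rise of 4.85 (SE 0.68, adjusted p = 0.000237), and its second probe set rose by 1.71.

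Those same arrays carried B cell markers. Ms4a1, which encodes CD20, read 12.85 and 11.13 on the 2 transient CD4 arrays, in the same order as Scd1, and 7.33 and 5.30 in unstimulated and 5.03 to 5.13 in continuous CD4 cells. Of 7 B cell markers 4 rose from unstimulated to transient CD4 cells (Ms4a1, Cd79b, Blnk and Cd22), with a median of 3.11 over the 7. The mean of the list was 10.74 and 9.44 in transient CD4 cells, 9.36, 6.72 and 7.33 in unstimulated CD8 cells, and 6.24 to 8.39 in the other 4 groups of day 5. The first unstimulated CD8 array, with Scd1 at 7.59, also had the highest Ms4a1 of its group, 9.98 against 4.44 and 6.17. The myeloid list mean, at 6.64 and 8.29 in transient CD4 cells, did not follow the Scd1 order there. In unstimulated CD8 cells it was 9.05, 5.17 and 6.45, in the same order as Scd1 at 7.59, 4.99 and 5.67. Adipoq, a fat cell gene, was at 3.51 to 3.75 on these 5 arrays. The first stimulated CD8 array of day 2 read Scd1 at 6.79 with a B cell list mean of 6.80. In a bulk sample, fewer cells of a type and less RNA per cell cannot be told apart. The part of B cells or of myeloid cells in the Scd1 signal was not tested.

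**Figure D4:**
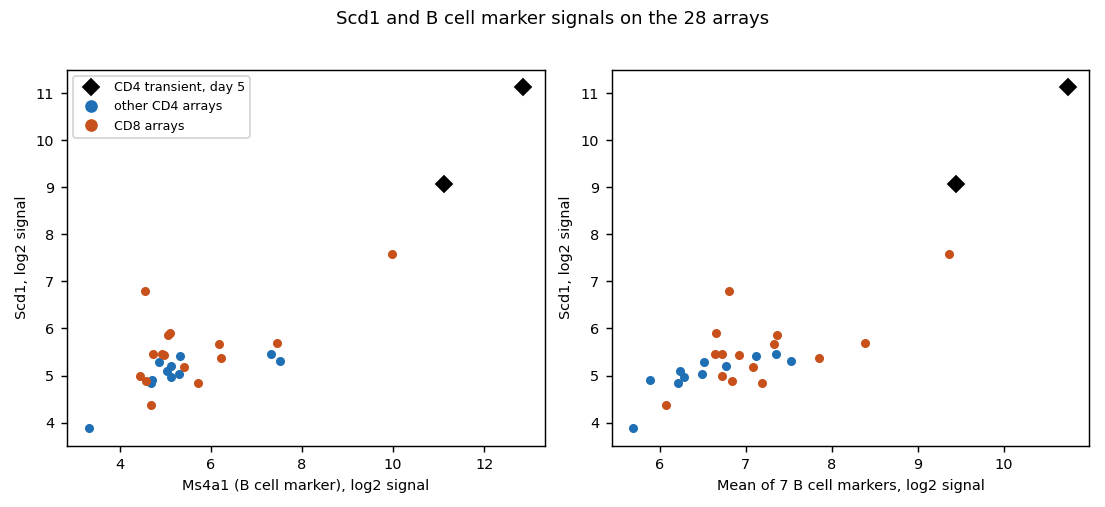
Log2 signal of Scd1 on each of the 28 arrays against B cell marker signals on the same array (left: Ms4a1, right: mean of 7 markers; diamonds: transient CD4 cells on day 5, circles: other CD4 and all CD8 arrays). The 2 transient CD4 arrays lie at the upper right, with Scd1 at 11.14 and 9.07 and Ms4a1 at 12.85 and 11.13, and the unstimulated CD8 array with Scd1 at 7.59 has Ms4a1 at 9.98.

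The genes most like Scd1 over the 28 arrays were Mef2c (Pearson r = 0.93), Spib (0.92), Fcrla (0.92), Ly6d (0.91) and Blnk (0.91), and over the 16 arrays of day 5 they were Fcrla (0.98), Mef2c (0.97), Spib (0.96), Syk (0.96) and Blnk (0.95). Scd1 itself had r = 0.06 with the mean of the 8 sterol genes over 28 arrays. These values describe arrays that share groups and, for Scd1, rest on few high arrays.

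Day 2 asked what stimulation through CD3 and CD28 did in culture. Scd2 gave the widest difference of the 10 genes in both cell types. It read 5.37, 4.87 and 4.02 on the arrays labelled unstimulated and 11.06, 10.72 and 10.94 on the stimulated CD4 arrays, and 5.69, 5.73 and 4.02 against 11.91, 10.79 and 11.46 in CD8 cells. On day 2 no unstimulated array reached 6 and no stimulated array was below 10. Unstimulated cells of day 5 were not low, at 9.93 and 9.96 in CD4 and 10.07, 9.82 and 10.00 in CD8 cells. The wide difference thus belonged to the unstimulated cultures of day 2. The rise was 6.15 in CD4 cells (SE 0.54, adjusted p = 3.71e-05), or 71.2-fold, and 6.24 in CD8 cells (SE 0.54, adjusted p = 2.46e-05), or 75.6-fold. Without the third unstimulated arrays it was 5.79 and 5.68. The other Scd2 probe sets moved less, by 0.40 and 1.02 in CD4 and by 0.54 and 3.13 in CD8 cells, none of them called. The smaller differences, of 1415823_at, came from the third unstimulated arrays, at 4.54 and 4.52. The other unstimulated arrays read 5.76 to 6.38 and the stimulated ones 5.65 to 6.14. For 1415824_at the stimulated CD8 arrays read 6.54, 5.16 and 10.21, so its 3.13 leaned on the third. The actin 3' minus 5' difference was 2.28 to 4.30 in unstimulated and 1.11 to 1.69 in stimulated cells, and its part in the day 2 results was not tested.

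With all 12 arrays of day 2, 6 genes rose and 0 fell in CD4 cells, where 10.7% of all genes were called up and 0.718% down. Sqle read 5.82, 8.12 and 5.60 on unstimulated and 10.62, 10.28 and 10.70 on stimulated arrays and rose by 4.02 (SE 0.86, adjusted p = 0.00932). Cyp51 rose by 3.22, Idi1 by 2.90, Lss by 2.19 and Fdps by 1.83. These 5 rises, without the third unstimulated arrays, were 3.56 for Sqle, 2.35 for Cyp51, 2.73 for Idi1, 1.69 for Lss and 1.74 for Fdps. With all 12 arrays and probe sets averaged, Lss at 0.62 and Fdps at 0.97 were not called, while Idi1 at 2.99 and Cyp51 at 1.92 were. In CD8 cells 3 genes rose and 0 fell, where 7.49% of all genes were called up and 0.863% down. Besides Scd2 these were Sqle, which read 7.89, 8.49 and 4.69 against 10.65, 10.80 and 10.48 and rose by 3.62 (SE 0.86, adjusted p = 0.0202), and Fdps, which rose by 1.69. Without the third arrays they rose by 2.45 and 1.39. With all 12 arrays and probe sets averaged, Fdps at 0.77 was not called in CD8 cells and Idi1 was, at 2.65. The unstimulated spread of Sqle came mainly from the third array in CD8 cells, while in CD4 cells the second array stood high.

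Without the third unstimulated arrays the calls changed in number and direction. In CD4 cells 6 genes rose and 1 fell, where 26.2% of all genes were called up and 39.4% down, and Hmgcs1 was the gene that fell, by 1.07 (adjusted p = 0.00395). In CD8 cells 5 genes rose and 2 fell, where 16.5% were called up and 21.4% down. Hmgcs1 fell there by 1.36 and Dhcr7 by 1.28, and Cyp51 rose by 1.84 and Lss by 0.86. With all arrays Hmgcs1 differed by -0.77 and -0.97 and was not called. Its probe sets disagreed here too. Their mean, with all arrays, differed the other way, by 1.01 in CD4 and 0.50 in CD8 cells, and was not called, so the falls are those of the probe set with the highest mean. Single arrays weighed on these counts as well. Without the first or the third stimulated CD4 array 3 and 2 genes were called, and without any one stimulated CD8 array 1 gene was called, while 5 were without the first unstimulated CD8 array.

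The scaling of the arrays also weighed on day 2. Median centring of the arrays moved the median difference of all genes from 0.14 to -0.23 in CD4 and from 0.14 to -0.25 in CD8 cells, and quantile normalization moved it to -0.18 in both. The split of calls then became 20.2% up and 16.6% down in CD4 and 17.7% up and 12.5% down in CD8 cells after centring, and 11.5% up with 13% down and 10.4% up with 11% down after quantile normalization. Scd2 was called up under each of these scalings. Of the 10 genes, the difference in response between CD8 and CD4 cells called 0 by limma (0 at an unadjusted p below 0.05), where 0% of all genes were called, and stimulated CD8 minus stimulated CD4 cells called 0 (1 at an unadjusted p below 0.05), where 0.0242% were. These comparisons, without the third unstimulated arrays, again called 0 and 0 by limma (1 and 2 at an unadjusted p below 0.05), where 2.49% and 0.702% of all genes were called. With all arrays the interval for the Scd2 difference in response was -1.56 to 1.73, so differences of that size were not detectable.

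Day 5 was set against stimulated cells of day 2 in one fit of all 28 arrays, in which culture, host and time changed together and cannot be told apart. Continuous CD4 cells had 0 called genes by limma (3 at an unadjusted p below 0.05), where 9.01% of all genes were called, and continuous CD8 cells had 1, where 4.68% were. That gene was Dhcr7, at 7.11, 6.80 and 7.24 in stimulated and 9.21, 8.90 and 9.34 in continuous CD8 cells, which rose by 2.10 (SE 0.48, adjusted p = 0.00911). Without the third unstimulated arrays 4 and 2 genes were called, where 33.6% and 26.6% of all genes were. Transient CD4 cells had 5 called genes, where 12.7% of all genes were called: Fdps fell by 2.48, Cyp51 by 2.55 and Lss by 1.64, while Hmgcs1 rose by 1.38 and Scd1 by 5.10. Transient CD8 cells had 4, where 12.8% were called: Sqle fell by 2.00, Scd2 by 1.76 and Fdps by 0.88, and Dhcr7 rose by 1.80. Without the third unstimulated arrays these counts were 7 and 8, where 36.8% and 36.2% were called. With probe sets averaged, Hmgcs1 at 0.43 and Lss at -0.36 were not called in transient CD4 cells. In transient CD8 cells Fdps at -0.51 was then not called, while Idi1 at -1.67 and Cyp51 at -1.10 were. Leaving out single arrays took the transient CD4 count to 2 without the second transient array and to 3 without the first transient or the third stimulated array. It took the transient CD8 count to 1 without the second stimulated or the third transient array and to 2 without the first stimulated, the first transient or the second transient array. Continuous CD4 cells had 1 called gene without the third continuous array, and Dhcr7 was not called in continuous CD8 cells without the second stimulated array.

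Probe sets of one gene did not always move together. In continuous against unstimulated CD4 cells 11 of the 25 probe sets rose and 1 fell, where 9.71% of the 20380 probe sets were called up and 10.4% down, and in continuous against transient CD8 cells 10 rose and 0 fell, where 14% were called up and 12.5% down. Hmgcs1 disagreed most. Its probe set 1433443_a_at read 9.92 and 10.37 in unstimulated and 10.96 and 11.30 in transient CD4 cells, a rise of 0.99, while 1433446_at read 7.28 and 7.02 against 5.58 and 5.85, a fall of -1.44 (SE 0.26, adjusted p = 0.00155). In continuous CD4 cells 1433446_at read 8.94, 8.43 and 8.04, above all unstimulated arrays, and rose by 1.32 against them, as did 1433444_at by 0.94 and 1433445_x_at by 0.96. In CD8 cells 1433443_a_at fell by 1.18 from unstimulated to continuous cells and 1433446_at rose by 0.96.

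Fdft1 and Lss also had probe sets that gave different values. The second Fdft1 probe set, 1448130_at, rose by 1.74 in continuous against unstimulated CD4 cells and by 0.76 in continuous against transient CD8 cells, where the first rose by 1.23 in CD4 cells and was not called in CD8 cells. The Lss probe set 1426913_at, with a mean signal of 4.67, fell by -1.07 in continuous against unstimulated CD4 cells while 1420013_s_at rose. For Cyp51, 1422533_at rose by 1.22 in continuous against transient CD8 cells, where 1450646_at rose by 1.27. In continuous against unstimulated CD4 cells it differed by 0.65 and was not called, against a rise of 1.56, and in transient against unstimulated CD8 cells by -0.32, against a rise of 1.06. For Idi1 1423804_a_at rose by 1.46 in CD4 and 1.38 in CD8 cells. The 5 remaining probe sets of the sterol genes, 1 of Fdps, 2 of Fdft1, 1 of Lss and 1 of Cyp51, had mean signals of 3.19 to 5.73 and were not called in either comparison. Of the further Scd2 probe sets 1415823_at rose by 0.79 in CD8 cells and differed by 0.43 in CD4 cells, and 1415824_at and the second Scd1 probe set were called in neither. Sqle and Dhcr7 had 1 probe set each, so no such check could be made for them.

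Other genes of the pathway were taken from lists by role. Their counts are for the first comparisons, in which 9.92% of all genes were called up and 10.8% down in CD4 cells and 13.6% up and 13.6% down in CD8 cells. Of 4 further genes between acetyl-CoA and farnesyl, Pmvk, the kinase after mevalonate kinase, rose in continuous against unstimulated CD4 cells by 1.14, and 0 fell. In continuous against transient CD8 cells 0 of the 4 rose and Ggps1, which makes the longer geranylgeranyl chain, fell by 0.62. Of 7 further genes between squalene and cholesterol, 2 rose in CD4 cells (Nsdhl and Lbr, each by 0.51) and 2 in CD8 cells (Sc5d by 1.05 and Hsd17b7 by 0.46), and 0 fell in either. Against transient CD4 cells, where 17.6% of all genes were called up, 6 of the 7 rose, among them Sc5d by 1.39, Msmo1 by 1.28 and Ebp by 0.85.

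The regulators themselves were not called in these first comparisons. Srebf2 differed by -0.29 in CD4 and 0.03 in CD8 cells and Srebf1 by -0.18 and -0.11, while Srebf1 fell by 0.76 from unstimulated to continuous CD8 cells. Of 9 genes of sterol sensing and uptake, 1 rose and 1 fell in CD4 cells and 2 rose and 3 fell in CD8 cells, beside 9.92% up and 10.8% down, and 13.6% each way, of all genes. Tmem97, the sigma-2 receptor, which takes part in cholesterol trafficking, read 5.24 and 5.38 in unstimulated and 6.38, 6.54 and 6.41 in continuous CD4 cells, and 5.53, 5.60 and 5.42 in transient against 8.22, 8.15 and 7.47 in continuous CD8 cells. The groups did not overlap in either cell type, and the gene rose by 1.13 (SE 0.19, adjusted p = 0.000859) and 2.42 (SE 0.17, adjusted p = 3.03e-06). Stard4, a carrier of sterol between membranes, rose by 0.92 in CD8 cells. In CD4 cells Scap fell by 0.61, and in CD8 cells Npc2, which moves cholesterol out of lysosomes, fell by 0.73 and Insig2 by 0.54.

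Of 4 measured genes of sterol efflux and storage, 3 fell and 0 rose in each of the first comparisons, where 10.8% of all genes were called down in CD4 and 13.6% in CD8 cells. Abca1, which exports cholesterol, read 7.49 and 7.90 in unstimulated and 5.62, 5.43 and 4.99 in continuous CD4 cells, and fell by 2.35 (SE 0.41, adjusted p = 0.00107). In CD8 cells it read 6.02, 5.84 and 7.16 in transient and 4.39, 4.34 and 5.56 in continuous cells, a fall of 1.58 (SE 0.36, adjusted p = 0.00526). No continuous array reached the range of its control in either cell type. Abcg1, the second exporter, fell by 1.63 in CD4 and 1.37 in CD8 cells, and Mylip, a ubiquitin ligase and known LXR target, fell by 1.36 and 1.88.

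Of 13 genes of fatty acid synthesis, 2 rose and 1 fell in CD4 cells and 3 rose and 3 fell in CD8 cells, beside 9.92% up and 10.8% down, and 13.6% each way, of all genes. Acss2, which makes acetyl-CoA from acetate, read 9.07 and 9.76 in unstimulated and 6.74, 7.29 and 7.03 in continuous CD4 cells, and fell by 2.40 (SE 0.28, adjusted p = 7.2e-05). It fell by 2.28 in CD8 cells and, on day 2, by 2.72 and 2.81 on stimulation (3.25 and 3.07 without the third unstimulated arrays). Fasn, the fatty acid synthase, read 9.33, 9.49 and 9.29 in transient and 10.40, 10.68 and 10.26 in continuous CD8 cells and rose by 1.08 (SE 0.14, adjusted p = 0.000104), against an uncalled 0.35 in CD4 cells. Continuous CD8 cells were above continuous CD4 cells by 0.94 for Fasn and by 1.50 for Tmem97, both called. The desaturase Fads1 rose by 0.73 in CD4 and 1.16 in CD8 cells, the acyl-CoA synthetase Acsl5 rose by 0.74 in CD4 cells and the elongase Elovl6 fell by 0.96 in CD8 cells, while Acaca, the carboxylase that starts fatty acid synthesis, differed by -0.06 and 0.15 and was not called.

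**Figure D5:**
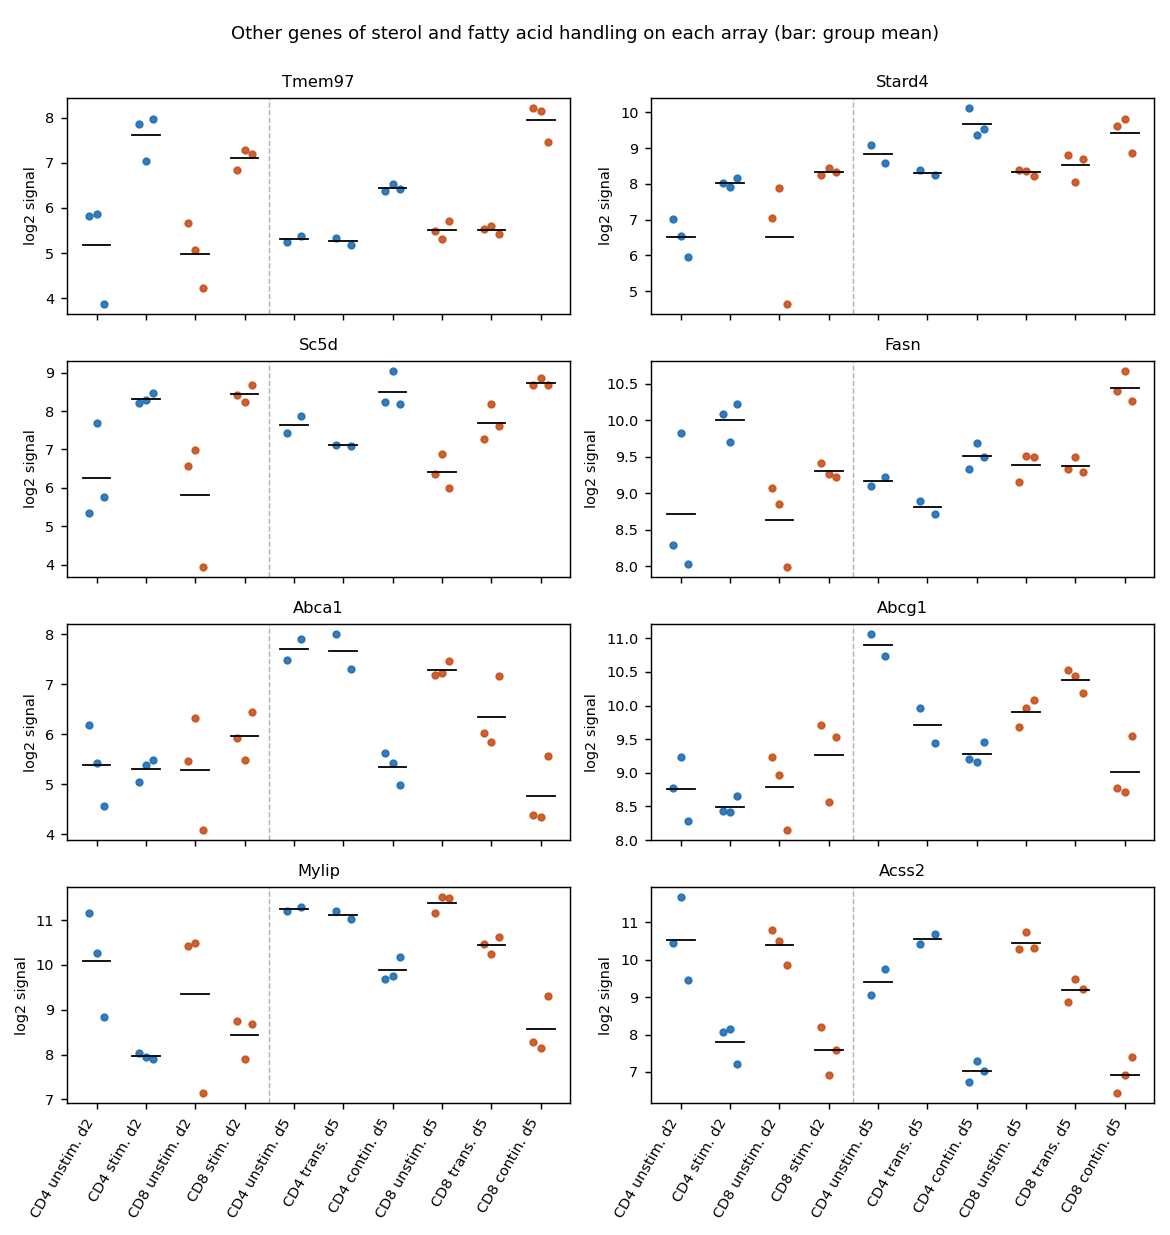
Log2 signal of 8 further genes of sterol and fatty acid handling on each of the 28 arrays (points: arrays, bars: group means, day 2 left and day 5 right of the dashed line). Tmem97 is at 6.38 to 8.22 in continuous cells and at 5.19 to 5.71 on the other arrays of day 5. Abca1, Mylip and Acss2 are lower on all continuous arrays than on any other array of day 5, and Abcg1 is too except that its continuous arrays at up to 9.54 reach the transient CD4 array at 9.44.

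Cell division moved with the members. All 11 measured cell cycle genes rose in continuous against unstimulated CD4 cells, with Cdk1 up by 5.43, and all 11 rose in continuous against transient CD8 cells, with Cdc6 up by 3.78, where 9.92% and 13.6% of all genes were called up. On day 2 all 11 rose in both cell types, with and without the third unstimulated arrays. The part of division in the members' differences was not tested. Of 10 genes of fatty acid oxidation, 1 rose and 2 fell in CD4 cells (Acadl by 0.78, Acadm by -0.72 and Acadvl by -0.49), and 0 rose and 1 fell in CD8 cells. Of 5 genes that use isoprenoids, 0 rose and 2 fell in CD4 cells and 2 rose and 1 fell in CD8 cells. For both lists the shares of all genes were 9.92% up and 10.8% down in CD4 and 13.6% each way in CD8 cells.

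Over all 28 arrays the genes most like the mean of the 8 sterol genes were Srsf3 (Pearson r = 0.97), Hnrnpab (0.96), Atp2a2 (0.96), Dpagt1 (0.95) and Arpc1a (0.95). Over the 16 arrays of day 5 they were Azin1 (0.94), Desi2 (0.93), Gzmk (0.92), Tubb4b (0.92) and Car5b (0.92). Scd2 had r = 0.81 with that mean over 28 arrays and 0.70 over the 16 of day 5. The genes most like Scd2 were Ipo9 (0.96), Calu (0.96), Atg101 (0.95), Cox15 (0.95) and Ctnna1 (0.95) over 28 arrays and Mcm6 (0.89), Abhd17c (0.89), Naa40 (0.87), Sh3gl3 (0.86) and Plaa (0.86) over 16. All of these describe arrays that share groups and medians.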

How the data were processed

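Amplified RNA from 28 T cell samples was read on Affymetrix Mouse 430A2 arrays. The authors deposited log2 expression values made by RMA (background correction, quantile normalization and probe set summary), per the submitters' processing notes, and the RMA version is not given in the sources used here. The medians of the deposited arrays ran from 4.83 to 6.53, so the 28 arrays did not share 1 distribution as deposited. No scanner files were used here, so saturation and background could not be checked, and RMA draws small differences together. Of 22690 probe sets, 20380 carried 1 gene symbol in the platform annotation, 691 several, 1555 none and 64 were controls. Where several probe sets named a gene, that of greatest average signal over the 28 arrays stood for it, which gave 12393 genes. No pair of arrays held identical values.

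From these values, group means were fitted with limma 3.58.1 in R 4.3.3, separately for day 2 (12 arrays) and day 5 (16 arrays), and on all 28 arrays for comparisons between days. Tests were two-sided, with Benjamini-Hochberg adjustment over all genes and a threshold of 0.05, and were tested on simulated data. There, on day 2, a change of 1 was called in 0% of cases in CD4 and 1% in CD8 cells. A change of 3 was called in 53% and 67%. On day 5 these shares were 75% to 89% for a change of 1 and 99% to 100% for a change of 3. Day 2 fits could thus miss such changes. The number of arrays limits the precision: for comparisons between groups the median standard error over all genes was 0.557 on day 2 and 0.148 to 0.182 on day 5. For differences in response between CD8 and CD4 cells it was 0.788 on day 2 and 0.222 to 0.234 on day 5. Comparisons between days had 0.401 to 0.448. Groups followed the sample titles. The labels do not say that replicate numbers pair samples, and the differences given above come from fits without pairing. A replicate block was fitted only as an alternative. The criterion for pairing was that 3 or more pairs all had correlations of same-numbered deviations over 0.1. Transient against unstimulated CD8 cells met this, at 0.50, 0.36 and 0.15; with the replicate block 3870 genes were called against 3937 without it, and 5 of the 10 members in both.

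Alternatives covered the probe set rule, a filter on low values, moderation, scaling, array weights, the replicate block, the arrays in the fit and single arrays left out. The members and lists were chosen with earlier results of these data known. Named are all members; from each pathway list up to 4 called genes with the largest change per comparison; Srebf1, Srebf2, Fasn, Acaca and Abca1 with or without a call; and the 5 genes with the highest correlation to the sterol mean, Scd1 and Scd2. Promoters came from RefSeq.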

Additional observations from a re-analysis of the deposited data

Results flagged for a closer look

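The change from unstimulated to transient cells on day 5 differed between CD8 and CD4 cells for 7 genes by a limma test of the difference itself. As CD8 minus CD4 on the log2 scale it was -2.00 for Hmgcs1, 1.11 for Fdps, -1.80 for Fdft1, 1.18 for Sqle, 2.30 for Cyp51, 2.31 for Dhcr7 and -5.90 for Scd1. The change from transient to continuous cells differed by -1.52 for Cyp51 and by 5.65 for Scd1. All 9 differences involve the transient CD4 arrays, which carried B cell markers at a list mean of 10.74 and 9.44 and actin 3' minus 5' values of 2.42 to 2.73, and the part of either was not tested.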

How the results depend on the processing

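The values are the number of the 10 genes called. On day 2, CD8 stimulation called 3, but 5 with low values left out, 7 after median centring, 8 with array weights, 5 with the replicate block, 7 in a fit of all 28 arrays and 7 without the third unstimulated arrays, and 1 to 5 when single arrays were left out. CD4 stimulation called 6, and 2 to 6 with single arrays left out. Stimulated CD8 minus CD4 cells called 0, but 5 with array weights.

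On day 5 a single fit of all 28 arrays lowered most counts. It called 1 in place of 7 for transient minus unstimulated CD4 cells, 0 in place of 6 for continuous minus unstimulated and 3 in place of 7 for continuous minus transient CD4 cells. In CD8 cells it called 0 in place of 5, 3 in place of 7 and 0 in place of 6 for transient minus unstimulated, continuous minus unstimulated and continuous minus transient. The differences between lineages went from 7 to 2 (transient minus unstimulated) and from 2 to 1 (continuous minus transient), and continuous CD8 minus CD4 cells from 2 to 0. That fit of 28 arrays takes in the 2 day 2 arrays that stood apart, and over all genes it called 87 in place of 2821 for transient minus unstimulated CD4 cells and 239 in place of 3937 for CD8 cells. Without those arrays, an alternative chosen after seeing the data, the counts were 4 and 2 for transient minus unstimulated CD4 and CD8 cells, 1 for the difference of continuous minus transient and 0 for continuous CD8 minus CD4 cells.

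The mean of a gene's probe sets called 3 for transient minus unstimulated cells in CD4, in CD8 and for their difference. It reversed Hmgcs1 in transient minus unstimulated CD4 cells (-0.28) and in that difference (0.0257), and Lss in continuous CD8 cells against unstimulated (-0.38) and transient cells (-0.0343). Array weights called 4 for the difference of continuous minus transient. Continuous CD8 minus CD4 cells had 1 call over all probe sets and 1 after centring. With single arrays left out the counts were 4 to 6 and 3 to 4 for transient minus unstimulated CD4 and CD8 cells, 3 to 6 for continuous minus unstimulated CD4 cells, 1 to 4 for the difference of continuous minus transient and 0 to 1 for continuous CD8 minus CD4 cells.

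Against stimulated cells of day 2, continuous CD4 cells (0 called) had 1 with the mean of probe sets, 3 after quantile normalization, 4 after centring, 6 with array weights, 1 with the replicate block, 6 in a fit of those groups only, 4 without the third unstimulated arrays and 0 to 1 with single arrays left out. Continuous CD8 cells (1 called) had 2, 2, 4, 3 and 2 under quantile normalization, centring, array weights, those groups only and without the third unstimulated arrays, and 0 to 1 with single arrays left out. Transient CD4 cells (5 called) had 3 with the mean of probe sets and 2 to 5 with single arrays left out. Transient CD8 cells (4 called) had 7 after centring, 8 with array weights, 9 in a fit of those groups only, 8 without the third unstimulated arrays and 1 to 3 with single arrays left out.

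The other counts stayed within 1.5 times, 211 in all. Of the values of single genes that were called, 927 stayed called in the same direction, 170 lost the call and 4 reversed. Where a cause is not named, the cause was not tested. Transient minus unstimulated CD8 cells alone met the pairing criterion, which needs 3 pairs; the 2 pairs of continuous minus unstimulated CD4 cells correlated at 0.42 and 0.28. With the block that CD4 comparison had 7 calls in place of 6, continuous minus unstimulated CD8 cells 8 in place of 7 and transient minus stimulated CD4 cells 6 in place of 5, and CD8 stimulation called 1550 genes in place of 1035. Exchanging the numbers in transient CD4 cells, chosen after seeing the data, called 2892 genes against 2821 and 7 members in both.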
